A study of Mus musculus with 4 samples.

Results

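Cytokine receptor genes were followed across 2 hematopoietic populations and 2 genotypes of mouse bone marrow, on 4 arrays. They were chosen by name: 36 symbols for receptor chains of the colony-stimulating factors, interleukins, interferons and the tumour necrosis factor family. The members are all probe sets that the platform's annotation assigns to 1 of these symbols alone. That gave 66 probe sets of 33 genes, of 18193 named genes on the array. Il1rl1, Il2rg and Il11ra1 had no such probe set in the annotation used and were not analysed here. One further probe set, shared by Csf2rb and Csf2rb2, was set aside.

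LSK cells are lineage-negative with both c-Kit and Sca-1 on their surface, the fraction that contains stem cells and multipotent progenitors. MP cells, the myeloid progenitors, have c-Kit without Sca-1. The wild-type (WT) mice were Smo flox/flox, Mx1Cre- and the Smo-deficient mice Smo flox/flox, Mx1Cre+, so both carry floxed alleles of the hedgehog signal transducer Smoothened and only the latter can delete it. The Mx1 promoter that drives Cre responds to interferon, and mice of both genotypes received polyI:C, an inducer of interferon, in 3 doses of 20 ug per g of body weight. Marrow was taken 6 weeks later, and that of 4 mice per genotype, of mixed sex and unstated age, was pooled before both populations were sorted. Each group is thus 1 array of 1 pool. The 4 strain labels read C57BL/6x129, C57BL/6x130, C57BL/6x131 and C57BL/6x132, whose last digits the labels do not explain.

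Most of these receptors work as pairs or larger complexes. A chain that binds the cytokine meets a shared signalling chain, such as the common beta chain of the IL-3, GM-CSF and IL-5 receptors or gp130 of the IL-6 family, and bound Janus kinases (JAKs) then activate STAT transcription factors. Receptors of the IL-1 and tumour necrosis factor families instead recruit adaptors that lead to NF-kappaB. In marrow these signals regulate the survival, division and lineage choice of progenitors, and interferons and IL-1 can drive stem cells into division.

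Values are log2 intensities on the probe set with the highest mean for each gene. Levels of different genes rest on different probes and were not compared with each other. Probe sets were tested when their mean exceeded 7.23, the 50th percentile, which 26 of the 33 genes passed. LSK was compared with MP over both pools with limma, the pool as a block and Benjamini-Hochberg adjustment over all 22518 probe sets past the filter. Both genotypes enter as 1 pool each. The residual thus compares pools that differ in genotype, and how much mice of 1 genotype vary does not enter the p-values. Genotypes were compared as differences of 2 arrays with no replicate and no p-value. As a scale, each is also given in spreads, where a spread is the scaled median absolute deviation among probe sets of like level. It describes these arrays and is no replicate error. The genotype comparisons and the LSK against MP comparison use the same arrays and are not independent of each other.

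The arrays correlated with each other at Pearson's r from 0.980 to 0.994 across probe sets. The brightest Smo probe set was lower in the Smo-deficient pool by a log2 difference of -3.05 in LSK and -1.78 in MP. The Y-linked Kdm5d was higher by 1.67 and 1.13 and the X-linked Xist had differences of -0.89 and -0.47, so genotype, the sex makeup of the pools and any other difference between them cannot be told apart. The 9 probe sets of hybridisation spikes differed between genotypes by -0.33 ± 0.12 (mean ± SD) in MP and 0.08 ± 0.06 in LSK. Of the sort markers, Kit was similar on all arrays, from 12.31 to 12.65, while Ly6a, which encodes Sca-1, was not analysed here. Cd34, which is not among the sort markers named above, was higher in LSK by 1.06, with genotype differences of 0.41 (LSK) and 0.63 (MP). In Smo-deficient LSK, 8 of 9 measured neutrophil markers and 7 of 9 macrophage markers were past the filter and higher than in WT LSK by at least 0.5 on the log2 scale. So were 5 of 7 B cell and 2 of 3 mature erythroid markers but 0 of 7 T and NK cell markers, where 4.65% of all genes past the filter were. In MP 1 marker each of the neutrophil, macrophage and B cell lists was, and 0 of the mature erythroid and the T and NK cell lists, where 3.76% of all genes were. In bulk RNA of sorted cells, fewer cells of a type and less RNA per cell cannot be told apart.

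The promoters of 4 members that the genotype results turn on are shown first, as the 250 bases before the start of transcription in the RefSeq annotation of GRCm38.p6, on the strand of the gene. Csf2ra, Csf2rb2 and Csf3r encode receptor chains for GM-CSF, IL-3 and G-CSF, and Tnfrsf14 encodes the herpesvirus entry mediator (HVEM). The window of Csf2ra is chr19:61228419-61228668 (minus strand), that of Csf2rb2 chr15:78305722-78305971 (minus), that of Csf3r chr4:126024409-126024658 (plus) and that of Tnfrsf14 chr4:154928078-154928327 (minus). Capitals mark GAGGAA, the core bound by PU.1 and other ETS factors, TTCNNNGAA, the element bound by STAT dimers, and GAAA, any 2 bases and GAAA again, a repeat found in interferon response elements, each on either strand.
Csf2ra: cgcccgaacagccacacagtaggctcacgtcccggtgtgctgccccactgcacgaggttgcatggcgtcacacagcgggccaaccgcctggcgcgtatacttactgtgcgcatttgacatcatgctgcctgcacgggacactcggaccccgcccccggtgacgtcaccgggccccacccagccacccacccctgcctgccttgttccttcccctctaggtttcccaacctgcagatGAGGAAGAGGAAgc
Csf2rb2: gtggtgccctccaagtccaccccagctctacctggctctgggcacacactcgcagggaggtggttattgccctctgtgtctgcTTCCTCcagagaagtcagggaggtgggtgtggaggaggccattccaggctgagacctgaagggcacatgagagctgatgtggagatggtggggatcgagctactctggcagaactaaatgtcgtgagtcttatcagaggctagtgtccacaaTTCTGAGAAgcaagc
Csf3r: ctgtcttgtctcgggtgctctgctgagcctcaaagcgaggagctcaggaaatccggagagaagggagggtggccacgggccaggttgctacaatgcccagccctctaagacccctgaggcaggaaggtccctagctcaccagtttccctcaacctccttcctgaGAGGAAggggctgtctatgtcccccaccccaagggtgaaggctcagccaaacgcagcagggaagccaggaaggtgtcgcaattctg
Tnfrsf14: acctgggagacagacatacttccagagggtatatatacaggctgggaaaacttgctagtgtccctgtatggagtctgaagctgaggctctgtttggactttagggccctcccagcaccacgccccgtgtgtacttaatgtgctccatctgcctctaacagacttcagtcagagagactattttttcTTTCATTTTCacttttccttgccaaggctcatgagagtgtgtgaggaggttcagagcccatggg

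GAGGAA occurred in the windows of Csf2ra, Csf2rb2 and Csf3r. In Csf2ra 2 copies stood side by side, from 14 to 9 and from 8 to 3 bases before the start, in Csf3r 1 copy lay from 86 to 81 bases before it, and in Csf2rb2 1 lay on the opposite strand from 167 to 162. The same letters were in 23.3% of all 32851 windows of this length in the table and in 11 of the 36 windows that matched 29 members. TTCNNNGAA stood 15 to 7 bases before the start of Csf2rb2 and was in 7.02% of all windows and 5 of the members' windows. The GAAA repeat lay on the opposite strand 64 to 55 bases before the start of Tnfrsf14, and was in 2.98% of all windows and 2 of the members' windows. The marked matches did not overlap. TATAAA was in 12.4% of all windows and in 0 of the members', GGGCGG in 32.7% and 17, and CCAAT in 33.8% and 11. A match describes the letters and is no evidence of binding.

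**Figure D1:**
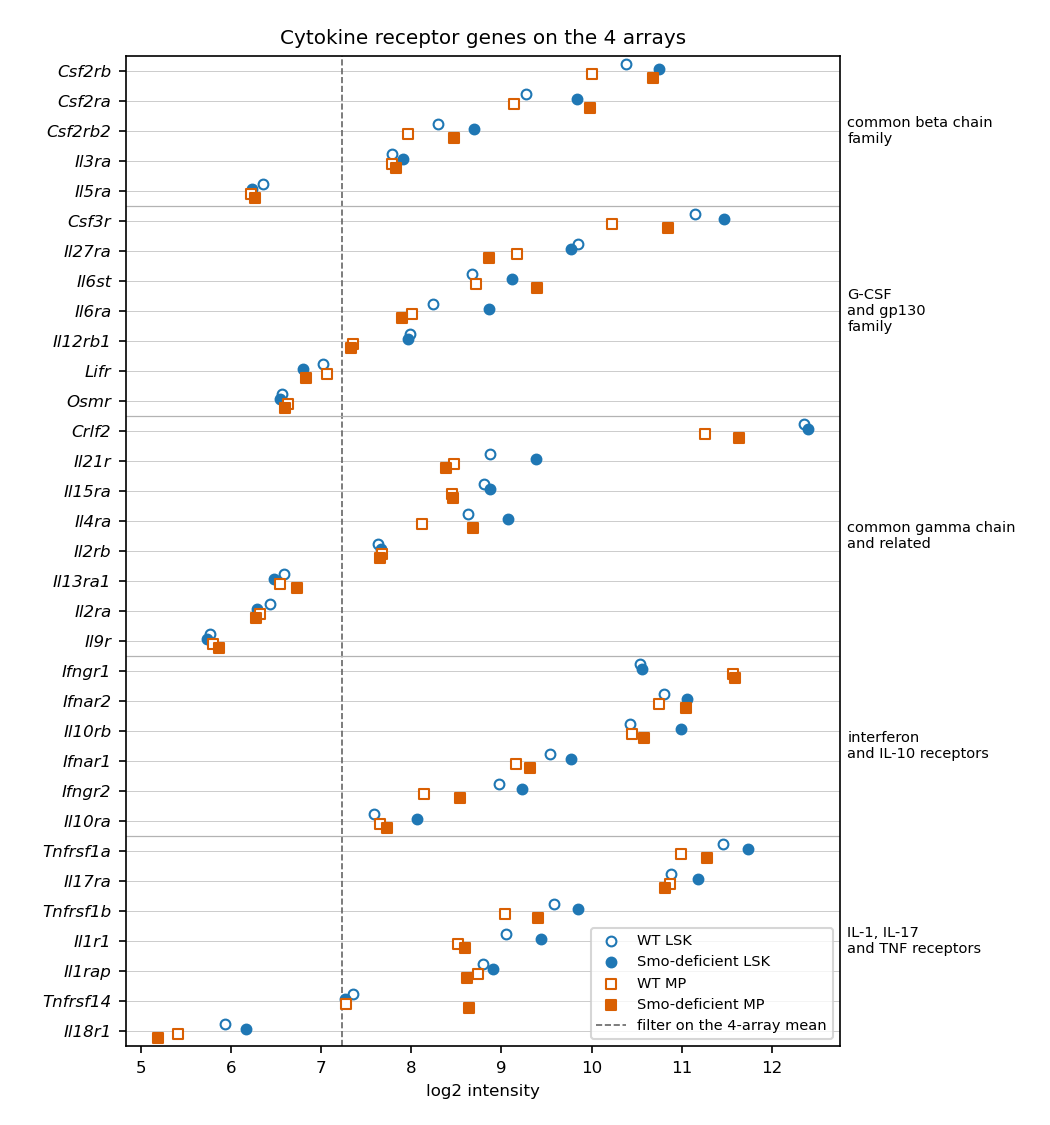
Log2 intensity of the 33 measured cytokine receptor genes on the 4 arrays, grouped by receptor family. Each symbol is 1 array, circles are LSK and squares MP, open symbols WT and filled ones Smo-deficient; the dashed line marks the filter at 7.23, which 26 genes passed by their mean.

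Where the receptor genes differed between LSK and MP, they were mostly higher in LSK. Of the 26 members tested, 12 were higher in LSK and 1 lower by limma, where 16.4% of all 11904 genes tested were higher and 7.54% lower. The median of LSK minus MP over all 33 measured members was 0.19 on the log2 scale, beside -0.04 over all named genes. The difference between the 3' and 5' probe sets of the Actb control, a sign of RNA quality, also moved with the population, from 1.31 to 1.34 in MP and from 1.53 to 1.55 in LSK, while that of Gapdh ranged from 1.57 to 1.78 with the groups overlapping. Its part in the LSK against MP results was not tested. No member reached 2-fold higher, and Ifngr1 was the 1 member 2-fold lower. The calls over all genes moved with the scaling, from 1951 higher and 898 lower to 1747 and 1421 after quantile normalization, and the members' calls then became 9 and 1. Without the pool as a block (no replicate block) 2 members passed as higher, Il12rb1 and Crlf2, and Ifngr1 as lower. In that setting 4.70% of all genes tested were higher and 0.706% lower.

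**Figure D2:**
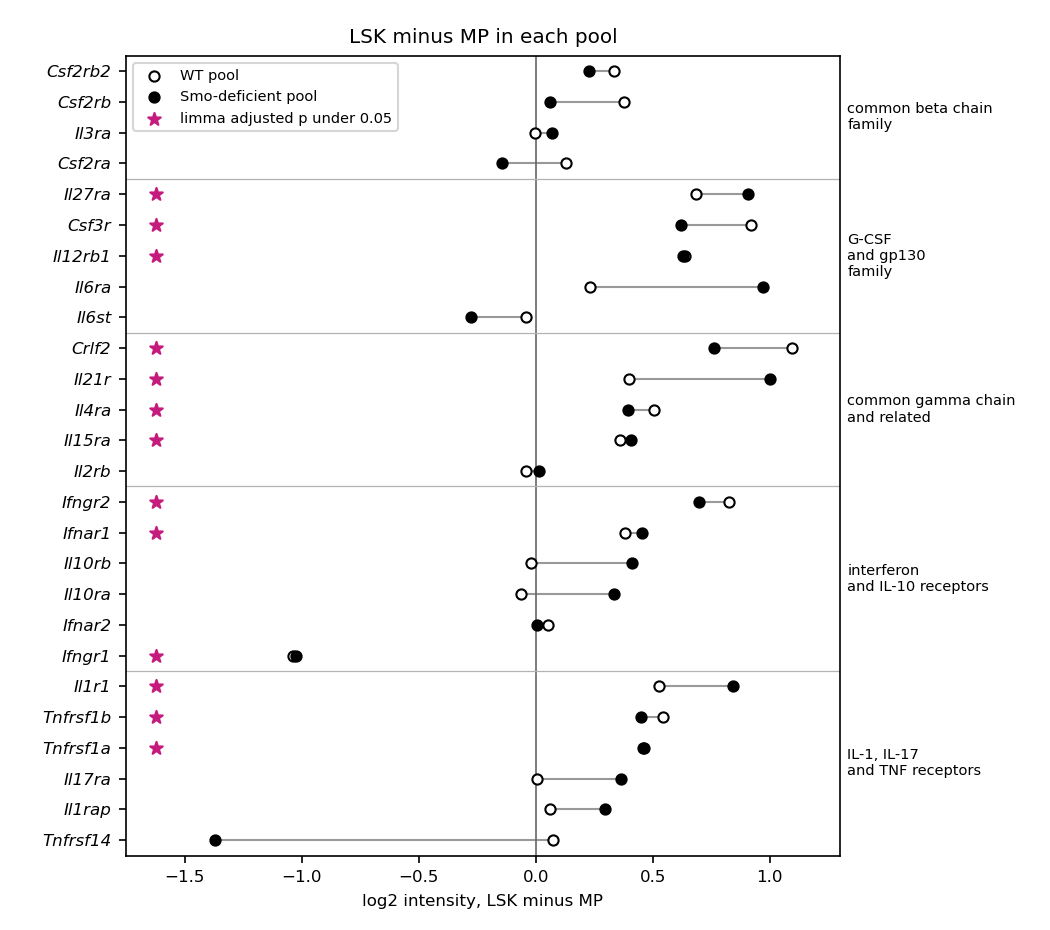
LSK minus MP in log2 intensity for the 26 members past the filter, in the WT pool (open) and the Smo-deficient pool (filled), with a star where limma's adjusted p was under 0.05. Ifngr1 stands below -1 in both pools, 12 members with a star stand above 0 in both, and Tnfrsf14 parts the pools.

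The interferon gamma receptor chains went in opposite directions. Ifngr1 encodes the chain that binds interferon gamma. Its log2 intensity was 10.54 (WT) and 10.56 (Smo-deficient) for LSK, and 11.57 (WT) and 11.59 (Smo-deficient) for MP. Both MP arrays were thus above both LSK arrays, by nearly the same amount in each pool. The mean LSK minus MP difference was -1.03 ± 0.10 (limma's moderated SE, adjusted p = 0.00113), 2.04-fold lower in LSK. This SE, given after ± for every LSK minus MP difference, draws on the variance of all probe sets tested. It is not the observed spread between the 2 pools. Ifngr2 encodes the partner chain that completes the signalling receptor. On 1423557_at it had 8.97 in LSK of the WT pool and 9.23 in that without Smo, with 8.15 and 8.54 in their MP cells. Both LSK arrays lay above both MP arrays, a difference of 0.76 ± 0.11 (limma adjusted p = 0.00509). The second Ifngr2 probe set past the filter, 1423558_at, gave -0.11 and its values from 8.17 to 8.41 showed no such order. With the median of both probe sets the Ifngr2 difference was 0.32 and did not pass.

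Type I interferon receptor chains were less separated. Ifnar1 was higher in LSK by 0.42 ± 0.11 (limma adjusted p = 0.041), with 0.38 in WT mice and 0.45 in Smo-deficient mice. Ifnar2 differed by 0.03 ± 0.10 and did not pass (limma adjusted p = 0.865). Between genotypes, Ifnar1 was higher without Smo by 0.23 in LSK and 0.16 in MP, and Ifnar2 by 0.25 and 0.30, at most 1.16 spreads from 0. The dimmest Ifnar2 probe set, 1440169_x_at, gave 0.66 in LSK and 0.28 in MP. All arrays come from mice given polyI:C 6 weeks earlier, so these are not levels of untreated marrow. Ifnar2, Il10rb, Ifnar1 and Ifngr2 lie next to each other on chromosome 16 with 0 other protein-coding genes between neighbours in the RefSeq annotation.

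The IL-10 receptor chains were higher without Smo in LSK and close between genotypes in MP. Il10rb encodes a chain shared by the receptors of IL-10, IL-22 and interferon lambda. Its log2 intensity was 10.43 and 10.99 in LSK (WT, then Smo-deficient) and 10.45 and 10.58 in MP. Smo-deficient LSK stood above the other 3 arrays, 1.48-fold over WT LSK and 2.52 spreads from 0, beside 1.10-fold in MP. Il10ra, the chain specific to IL-10, had 7.59, 8.06, 7.65 and 7.73 in the same order, again highest in Smo-deficient LSK. Its other probe sets, 1437808_x_at and 1456173_at, were below the filter and differed by 0.02 and -0.31 in LSK.

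None of the 4 tested genes of the common beta chain family passed in LSK minus MP (limma), where 16.4% of all genes tested were higher and 7.54% lower. The 4 differences ran from -0.01 to 0.28. In MP 3 of the 4 genes, Csf2ra, Csf2rb and Csf2rb2, were higher without Smo by at least 0.5 on the log2 scale, where 3.76% of all genes past the filter were. In LSK 1 was, Csf2ra, where 4.65% of all genes were. Il3ra differed between genotypes by 0.12 in LSK and 0.05 in MP, and Il5ra, below the filter, by -0.12 and 0.04.

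Csf2ra encodes the GM-CSF binding chain. Its log2 intensity on 1420703_at was 9.28 (WT) and 9.84 (Smo-deficient) for LSK, and 9.14 (WT) and 9.99 (Smo-deficient) for MP. Both Smo-deficient arrays stood above both WT arrays, 1.48-fold in LSK and 1.79-fold in MP, which is 2.48 and 3.35 spreads from 0. Csf2ra was the 1 member at least 0.5 higher in both populations, as were 1.91% of all genes past the filter. The second probe set, 1420704_at, stayed between 7.63 and 7.66 on all arrays, and the median of both gave 0.28 in LSK and 0.43 in MP.

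The beta chains signal for the ligands bound by the alpha chains. Csf2rb encodes the beta chain shared by the GM-CSF, IL-3 and IL-5 receptors. It had log2 intensities of 10.38 in LSK of the WT pool and 10.75 in that without Smo, with 10.01 and 10.69 in their MP cells. The Smo-deficient arrays were again the higher ones, by 0.36 in LSK and 0.68 (1.60-fold) in MP, and the second probe set, 1421326_at, gave 0.31 and 0.44. Csf2rb2, which lies next to Csf2rb on chromosome 15, encodes a beta chain that in mice serves IL-3 alone. It had 8.29, 8.70, 7.96 and 8.47 in the same order, higher without Smo by 0.40 in LSK and 0.51 in MP. The genes are close relatives, and how far the probes of 1 also read the other was not tested. The IL-3 binding chain gene Il3ra stayed between 7.78 and 7.90, and the IL-5 binding chain gene Il5ra was below the filter, between 6.23 and 6.36.

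Csf3r encodes the receptor for G-CSF, the main growth factor of neutrophils. It had log2 intensities of 11.14 and 11.47 in LSK (WT, then Smo-deficient) and 10.23 and 10.84 in MP. LSK was above MP in both pools, by 0.77 ± 0.12 (limma adjusted p = 0.00567), and the Smo-deficient arrays were above their WT counterparts by 0.32 in LSK and 0.62 (1.53-fold) in MP. The measured neutrophil markers are set beside it because neutrophils carry this receptor. By median they differed between genotypes by 0.85 (LSK) and 0.21 (MP), with all 9 above 0 in both, and their summed level on the log2 scale was 16.34 (WT) and 17.04 (Smo-deficient) for LSK, and 16.64 (WT) and 16.84 (Smo-deficient) for MP. The Csf3r difference was larger in MP and the marker difference larger in LSK, each from 2 arrays with no replicate. In LSK minus MP, 0 of 9 neutrophil markers passed by limma, where 16.4% of all genes tested were higher and 7.54% lower. The part of neutrophil RNA in the Csf3r values was not tested.

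The gp130 chain gene and the IL-6 binding chain gene differed in their genotype pattern. Il6st encodes gp130, the signalling chain shared by IL-6, IL-11, LIF and oncostatin M receptors. On 1452843_at it had 8.68 in LSK of the WT pool and 9.12 in that without Smo, with 8.72 and 9.40 in their MP cells. Smo-deficient arrays were above WT arrays in both populations, 1.36-fold in LSK and 1.60-fold in MP, and LSK minus MP was -0.16 ± 0.12 without passing. Another Il6st probe set, 1437303_at, had 6.15, 7.77, 7.40 and 7.24 in the same order. It parted the genotypes by 1.61 in LSK and by -0.17 in MP, with WT LSK as the low array, but its mean of 7.14 was just below the filter, so the size is uncertain. The remaining Il6st probe sets, 1421239_at and 1460295_s_at, were dimmer and differed by -0.24 and 0.22 in LSK.

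Il6ra encodes the chain that binds IL-6. On 1452416_at its log2 intensity was 8.24 and 8.86 in LSK (WT, then Smo-deficient) and 8.01 and 7.89 in MP. Smo-deficient LSK stood apart from the other 3 arrays, 1.54-fold above WT LSK and 2.99 spreads from 0. On the brightest probe set of each gene, this was the largest genotype difference in LSK among members past the filter. LSK minus MP was 0.23 in WT mice and 0.97 in Smo-deficient mice, and the mean of 0.60 did not pass (limma adjusted p = 0.0573). The other probe set, 1422270_a_at, stayed between 8.11 and 8.24 on all arrays. The median of both was 0.34 in LSK.

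Il27ra and Il12rb1 were higher in LSK in both genotypes, while Il12rb2, the other chain of the IL-12 receptor, was below the filter with 0.20 in WT mice and -0.18 without Smo. Il27ra, whose product pairs with gp130 to bind IL-27, had 9.85 (WT) and 9.77 (Smo-deficient) for LSK, and 9.17 (WT) and 8.86 (Smo-deficient) for MP. LSK was above MP by 0.80 ± 0.12 (limma adjusted p = 0.00542), and Il27ra had the most negative genotype difference in MP among members past the filter, -0.31. Il12rb1, a chain of the IL-12 and IL-23 receptors, had 7.99, 7.96, 7.35 and 7.33 in the same order. The difference of 0.64 ± 0.11 (limma adjusted p = 0.0085) was nearly equal in both pools, with 0.64 and 0.63, although the MP values were close to the filter. Lifr and Osmr, the chains for LIF and oncostatin M, were below the filter on every probe set.

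Among receptors that use the common gamma chain or are related to those that do, 4 of 5 tested genes were higher in LSK by limma, where 16.4% of all genes tested were. Of the 4, Crlf2 alone also passed without the pool as a block, where 4.70% of all genes tested were higher. Crlf2 encodes the receptor chain that binds TSLP, a cytokine of epithelium and stroma. It had log2 intensities of 12.36 in LSK of the WT pool and 12.39 in that without Smo, with 11.26 and 11.63 in their MP cells. Both LSK arrays stood above both MP arrays by 0.93 ± 0.11 (limma adjusted p = 0.00208), 1.90-fold, the largest positive difference of the members tested. The genotypes were level in LSK, at 0.04, and differed by 0.37 in MP.

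Il4ra and Il21r lie side by side on chromosome 7 and differed in pattern. Il4ra, the IL-4 binding chain, had 8.63 and 9.07 in LSK (WT, then Smo-deficient) and 8.12 and 8.68 in MP on 1421034_a_at. It was higher without Smo by 0.44 in LSK and 0.56 (1.47-fold) in MP, and higher in LSK than in MP by 0.45 ± 0.11 (limma adjusted p = 0.031). That call was lost after quantile normalization and with no filter. Its other probe sets past the filter, 1447858_x_at and 1423996_a_at, both gave -0.11 for LSK minus MP, as did the median of all 3, and genotype differences from 0.02 to 0.19. Il21r, the IL-21 binding chain, had 8.87 (WT) and 9.39 (Smo-deficient) for LSK, and 8.47 (WT) and 8.39 (Smo-deficient) for MP. It was higher in LSK by 0.70 ± 0.16 (limma adjusted p = 0.0241), by 0.40 in the WT pool and by 0.60 more in the other, and the genotype difference was 0.52 (LSK) and -0.08 (MP). Whether Il21r or Il6ra responds differently in LSK and MP could not be tested with 1 array per group.

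The other members of this family showed little. Il15ra passed at 0.38 ± 0.11 (limma adjusted p = 0.0489), close to the threshold, and Il2rb stayed between 7.63 and 7.67 on all arrays. Il2ra, Il9r and Il13ra1 were below the filter. The B cell markers beside these receptors, of which 7 were measured, were higher without Smo by a median of 0.75 (LSK) and 0.28 (MP), and the T and NK cell markers by 0.04 and 0.01. The part of lymphoid cells in the values of Il21r, Il4ra and Il10ra was not tested.

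Of the 6 tested receptors of the IL-1, IL-17 and tumour necrosis factor families, Il1r1, Tnfrsf1a and Tnfrsf1b were higher in LSK by limma and 3 did not pass, where 16.4% of all genes tested were higher. Il1r1, the signalling receptor of IL-1, had 9.05 in LSK of the WT pool and 9.44 in that without Smo, with 8.52 and 8.59 in their MP cells. LSK was above MP by 0.69 ± 0.13 (limma adjusted p = 0.0112), and the genotypes differed by 0.39 (LSK) and 0.07 (MP). Its partner chain gene Il1rap differed by 0.18 ± 0.12 and did not pass. The genotype differences of Il1rap were 0.11 and -0.12 on its brightest probe set and -0.34 and -0.13 on 1421843_at, which was dimmer. Il18r1, the IL-18 binding chain, was below the filter with values from 5.20 to 6.17.

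Both receptors of tumour necrosis factor were higher in LSK. Tnfrsf1a, which carries a death domain, passed at 0.46 ± 0.09 (limma adjusted p = 0.0165), nearly the same in both pools. Tnfrsf1b, which has no death domain, passed at 0.50 ± 0.11 (limma adjusted p = 0.0236). The second Tnfrsf1b probe set past the filter, 1448951_at, gave -0.24. Genotype differences on the brightest probe sets were 0.28 in LSK and 0.28 in MP for Tnfrsf1a, and 0.27 and 0.36 for Tnfrsf1b. On 1448951_at the Tnfrsf1b differences were -0.32 in LSK and 0.12 in MP, so the sign in LSK depends on the probe set. Il17ra, the shared chain of IL-17 receptors, differed by 0.18 ± 0.12 without passing.

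Tnfrsf14 had the largest genotype difference of all members on the brightest probe set of each gene. Its product, HVEM, is bound by LIGHT, lymphotoxin alpha and the inhibitory receptor BTLA. The log2 intensity was 7.36 and 7.27 in LSK (WT, then Smo-deficient) and 7.28 and 8.64 in MP. The first 3 values lie near the level of the filter, and Smo-deficient MP stood above all of them, 2.56-fold over WT MP and 8.01 spreads from 0. It ranked 5 among the 11904 genes past the filter, of which 0.269% were at least 2-fold higher in Smo-deficient MP. As the WT value is dim, the exact fold depends on the background, and with 32 added to every intensity the difference was 1.20. The gene has 1 probe set on the array, so no other probe set bears on it. Markers of T and NK cells, which also carry HVEM, had summed log2 levels of 10.42 and 10.44 in WT and Smo-deficient MP, and those of B cell markers were 10.78 and 11.10. The sums of the macrophage markers were 11.55 and 11.69, and those of the dendritic cell markers 12.57 and 13.29, with 2 of 6 markers above 0. The part of mature cells in the Tnfrsf14 values was not tested. LSK minus MP for Tnfrsf14 was 0.07 in WT mice and -1.37 in Smo-deficient mice and did not pass (limma adjusted p = 0.174).

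**Figure D3:**
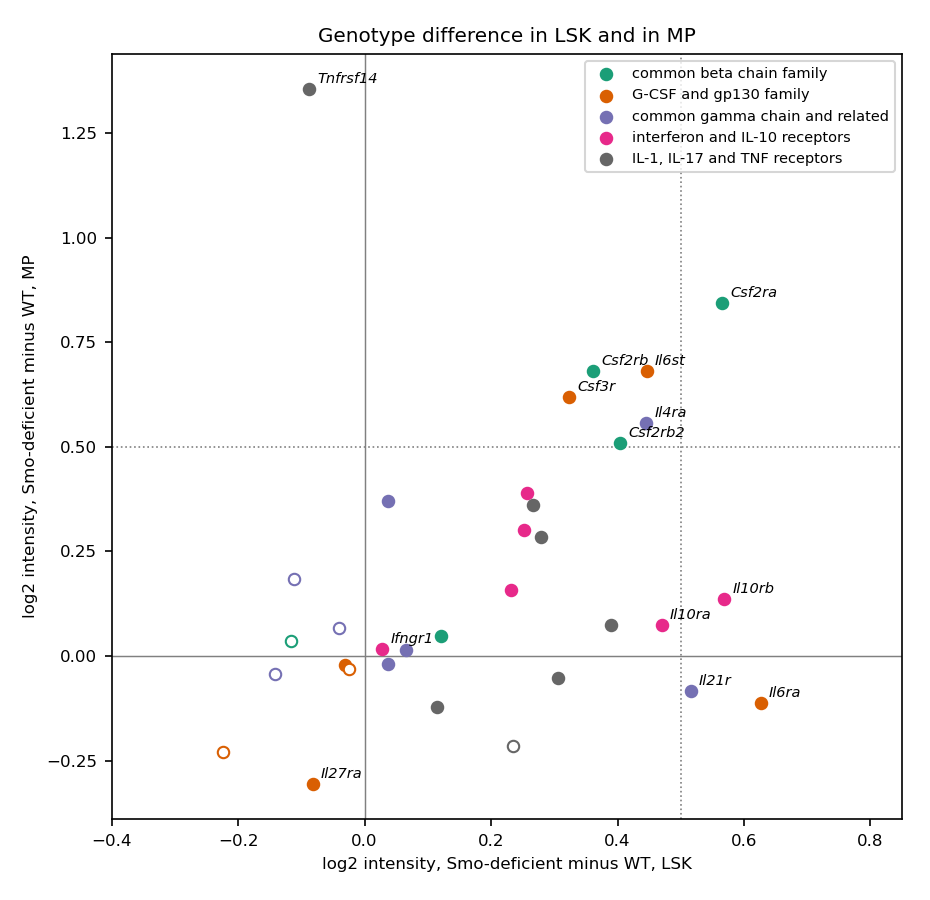
Smo-deficient minus WT in log2 intensity for the 33 measured members, in LSK (horizontal) and MP (vertical), 1 point per gene, with open points below the filter and dotted lines at 0.5. Tnfrsf14 stands alone at 1.36 in MP, Csf2ra is past both lines, and Il6ra, Il21r and Il10rb are past the line for LSK but not for MP.

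Across the members, genotype differences leaned towards higher levels without Smo. Over all 33 measured genes the median was 0.23 in LSK, beside -0.03 over all named genes, and 0.07 in MP, beside -0.03. At least 0.5 higher on the log2 scale were 4 of 26 members past the filter in LSK (Il6ra, Il10rb, Csf2ra and Il21r), where 4.65% of all genes past the filter were. In MP 7 of 26 were (Tnfrsf14, Csf2ra, Il6st, Csf2rb, Csf3r, Il4ra and Csf2rb2), where 3.76% of all genes were. None was lower by 0.5 in either population, where 1.44% of all genes were in LSK and 3.90% in MP. At the 2-fold threshold 0 members were called in LSK, where 0.689% of genes were higher and 0.260% lower. Tnfrsf14 alone was called in MP, as higher, where 0.269% of genes were higher and 0.294% lower. Beside the LSK differences, the summed log2 level of the macrophage markers was 11.16 in the WT array and 11.84 in the Smo-deficient one, and that of the T and NK cell markers 10.33 and 10.40. In MP the sum of the dendritic cell markers was 12.57 in the WT array and 13.29 in the Smo-deficient one. Of the 6 measured, Irf8 and Itgax were at least 0.5 higher, at 0.86 and 0.58. The remaining ones were lower, from -0.33 to -0.04, and the median of all 6 was -0.06. In LSK the dendritic sum was 11.63 and 12.54, with 3 of 6 above 0. The sum of the mast cell and basophil markers in MP was 13.35 and 13.69, with 2 of 7 at least 0.5 higher and 5 above 0. The part of mature cells in these differences was not tested. The 7 members below the filter had differences from -0.22 to 0.23 in LSK and from -0.23 to 0.18 in MP.

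**Figure D4:**
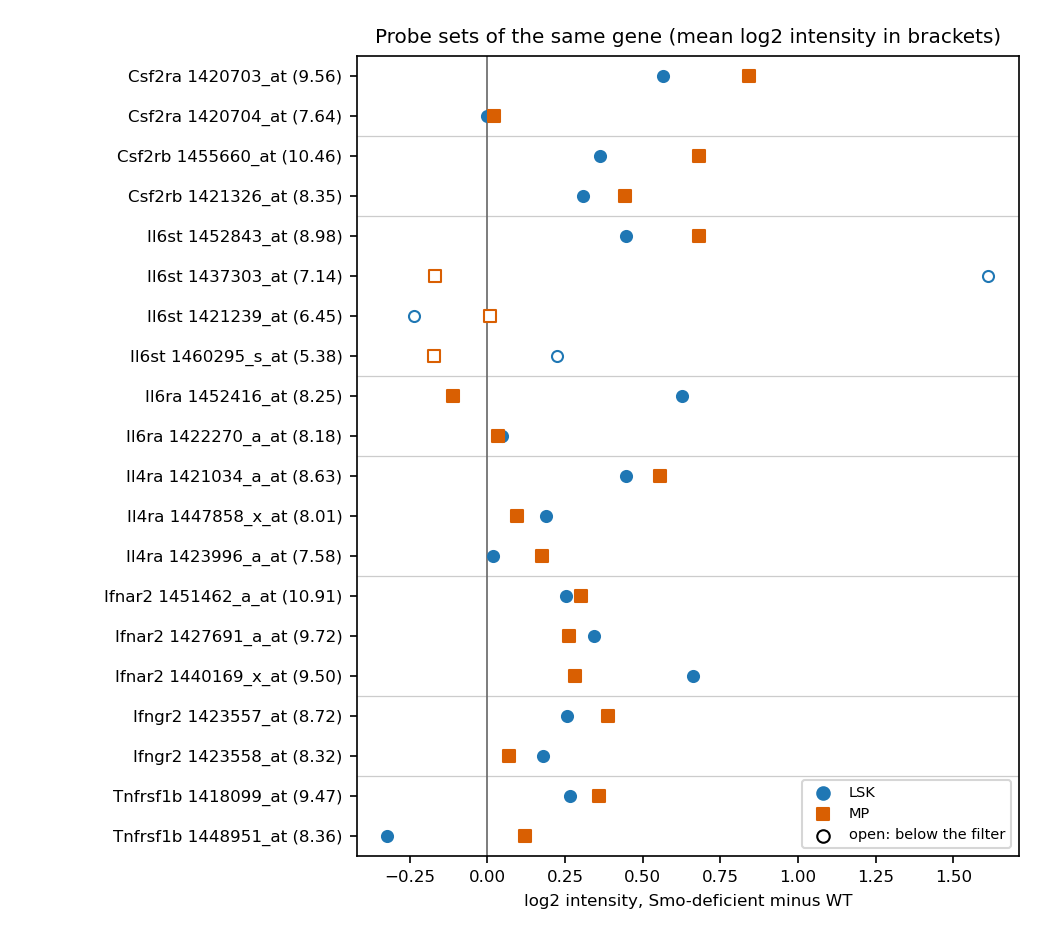
Smo-deficient minus WT in log2 intensity for each probe set of 8 members with several, in LSK (circles) and MP (squares), with open symbols below the filter and the mean level in brackets. For Csf2ra, Il6ra and Il4ra the brightest probe set parted the genotypes by more than the others did, and 1437303_at of Il6st reached 1.61 in LSK below the filter.

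The signalling genes downstream of these receptors were examined as a list of 49 symbols of JAKs, STATs, SOCS proteins, phosphatases and adaptors, of which 44 were measured and 43 tested. In LSK minus MP 14 of the 43 were higher and 0 lower by limma, where 16.4% of all genes tested were higher and 7.54% lower, and the list median was 0.20. The largest differences were those of Socs2 and Socs3, feedback inhibitors of the SOCS family that block JAK and receptor signalling, while Socs1, Socs4, Socs6 and Socs7 did not pass, with differences from -0.19 to 0.31. Socs2 was at 10.25 (WT) and 10.07 (Smo-deficient) for LSK, and 7.53 (WT) and 7.11 (Smo-deficient) for MP. It was 7.16-fold higher in LSK, 2.84 ± 0.12 on the log2 scale (limma adjusted p = 0.000111). A second Socs2 probe set, 1418507_s_at, gave 3.48, and 1442586_at, also past the filter, gave 0.00. The MP values of the first probe set lie near the filter and those of the second below it, so both sizes are uncertain.

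Socs3, which binds gp130 and the G-CSF receptor and blocks their signal, was also higher in LSK than in MP. On 1455899_x_at it had 10.92 in LSK of the WT pool and 11.69 in that without Smo, with 8.60 and 9.15 in their MP cells. That is 2.43 ± 0.12 higher in LSK (limma adjusted p = 0.000141). LSK minus MP was 2.47 on 1456212_x_at and 1.03 on 1416576_at, so the size depends on the probe set. The Socs3 genotype difference was 0.76 (LSK) and 0.55 (MP) on 1455899_x_at, 0.92 and 1.19 on 1456212_x_at, and 0.39 and -0.37 on 1416576_at. Cish, a target of STAT5 that inhibits it in turn, was higher in LSK by 1.26 ± 0.12 (limma adjusted p = 0.000967). Socs5 was higher by 1.06 ± 0.18 (limma adjusted p = 0.00815), and its second probe set gave -0.01.

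Stat4, the factor activated by IL-12 receptors, was higher in LSK by 1.86 ± 0.12 (limma adjusted p = 0.000313), beside the 0.64 of Il12rb1. Usp18, which limits type I interferon signalling at the receptor, was higher by 0.94 ± 0.12 (limma adjusted p = 0.00346). Without the pool as a block 5 genes of the list passed as higher, where 4.70% of all genes tested did. Between genotypes the list medians were 0.11 in LSK and -0.03 in MP. Of its 43 genes past the filter, Socs3 and Socs5 were higher without Smo by at least 0.5 in LSK, and Socs3 alone was in MP. None was lower by that size. Of all genes past the filter, 4.65% were higher by it in LSK and 3.76% in MP, so the list did not exceed these shares. The second Socs5 probe set past the filter, 1423349_at, gave -0.05 in LSK, beside 0.62 on the brightest.

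**Figure D5:**
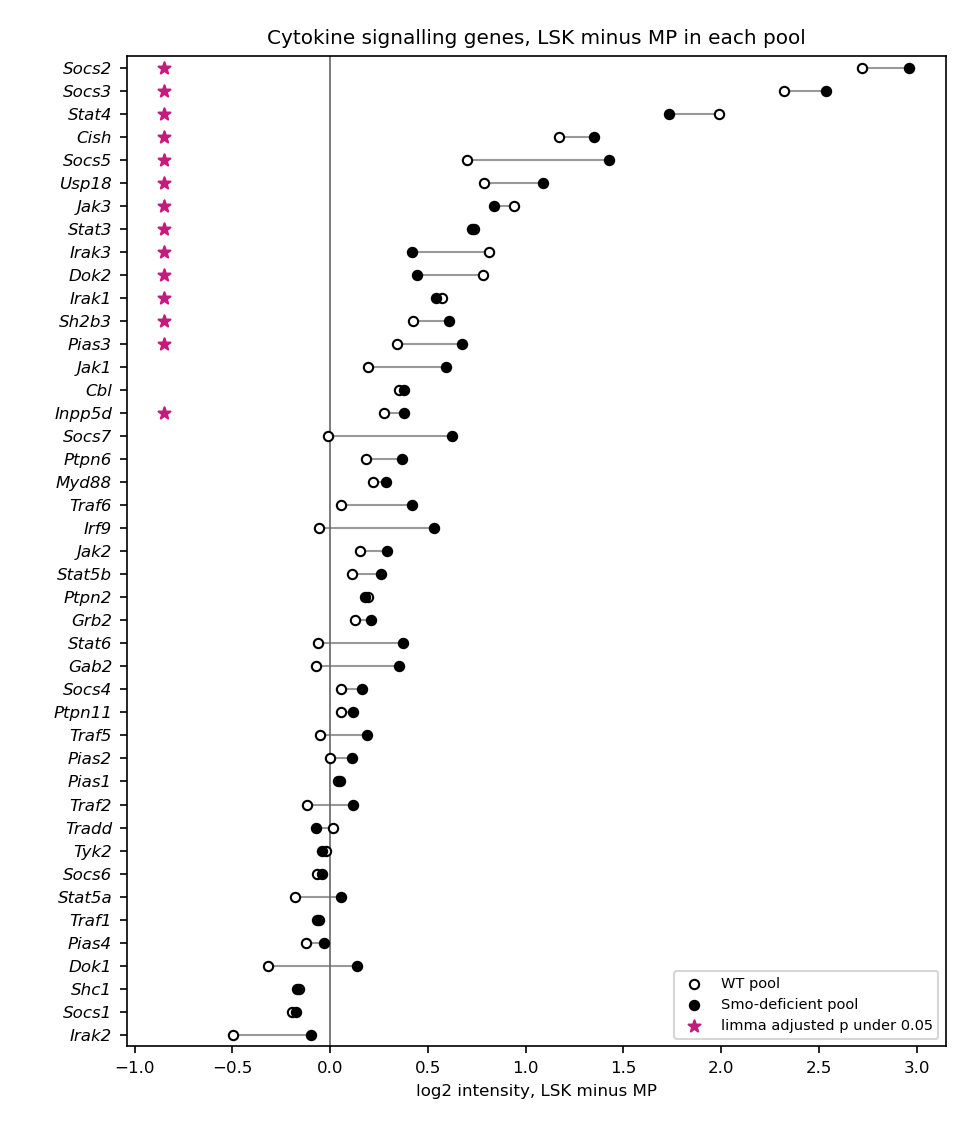
LSK minus MP in log2 intensity for the 43 tested genes of cytokine signalling, in the WT pool (open) and the Smo-deficient pool (filled), ordered by the mean of both, with a star where limma's adjusted p was under 0.05. Socs2, Socs3 and Stat4 stand highest, 14 genes carry a star, and all of these lie above 0 in both pools.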

How the data were processed

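The submitters' processing notes name RMA, with no version or genome build given in the sources used here. Intensity as deposited covers 45101 probe sets of an Affymetrix mouse array on 4 arrays. Since these range between 12.3 and 44290.5 they are linear, and no pseudocount was added before log2. The deposited arrays have similar medians, from 149.1 to 150.3, but unequal distributions, since quantile normalization moved the calls. Per the labels, 20 ng of total RNA per sample was amplified before labelling.

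The 64 control probe sets were set aside. Of the other 45037, 34945 had 1 gene in the platform annotation, 932 several and 9160 none, and no gene was named from a probe set with several. Each gene was represented by its single-gene probe set of highest mean. limma 3.58.1 (R 4.3.3; lmFit, eBayes with trend, two-sided) was fitted to the 22518 probe sets past the filter, with 1 residual degree of freedom per probe set, and an adjusted p under 0.05 passed. The fit was also run on simulated data with independent noise on each array and no genotype effect. That setting differs from these data, where pool and genotype coincide, so it does not bear on the calls given here. Spreads used 20 bins of level. By rule, members past the filter were described in full if they passed limma with a difference of at least 0.5 or differed by 0.5 between genotypes, and of each other list the 6 genes with the largest differences that passed were named. Other members are given by ranges or single values. The members and lists were chosen with earlier results of these data known. The promoters shown and the motifs searched were chosen after the values were seen. Alternatives were the normalization, a pseudocount of 32, the filter, the probe set rule, the threshold, the block, the trend and leaving out a pool.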

Additional observations from a re-analysis of the deposited data

How the results depend on the processing

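With LSK and MP as independent groups (no replicate block for the pool), members higher in LSK went from 12 to 2 and signalling genes from 14 to 5. Other cytokine and growth factor receptors went from 9 higher and 2 lower to 4 and 0. Over all genes tested the calls also fell, from 1951 higher and 898 lower to 560 and 84, which is 4.70% and 0.706%. No paired analysis was possible for the genotype comparisons because each genotype is 1 pool. Leaving out a pool leaves no residual degrees of freedom, so only values were computed: the members' median of LSK minus MP was 0.33 without the WT pool and 0.13 without the Smo-deficient pool. Of members at least 2-fold higher in Smo-deficient MP, the count of 1 became 0 with a filter at the 60th percentile, which removes Tnfrsf14, 5 at 1.5-fold and 0 at 3-fold. In LSK the count of 0 became 1 at 1.5-fold. Members at least 0.5 higher in LSK went from 4 to 2 with the median over the probe sets of a gene, and LSK minus MP of Il4ra then turned to -0.11. The 0.5 threshold as a count was added after seeing the data. Under quantile normalization, cyclic loess, a pseudocount of 32, no filter, the filter at the 60th percentile and the probe set median, the counts of members higher in LSK stayed between 9 and 13. Dim probe sets near the filter, Tnfrsf14 and Il12rb1 in MP among them, limit the sizes given.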

Other observations

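Growth factor and cytokine receptors outside the members were examined as a list of 32 symbols, of which 29 were measured and 21 tested. In LSK minus MP 9 were higher and 2 lower by limma, where 16.4% and 7.54% of all genes tested were. The growth hormone receptor gene Ghr had 7.89 and 8.22 in LSK (WT, then Smo-deficient) and 6.43 and 6.40 in MP. It is given as values alone, since its mean exceeds the filter only through the LSK arrays, and the other Ghr probe sets were below it. The same holds for Tnfrsf13c, with 7.43 and 7.80 in LSK and 7.07 and 6.95 in MP. Both are among the 9 counted as higher, so that count is in part set by the filter. Cd27, a receptor of the tumour necrosis factor family, was higher in LSK by 1.58 ± 0.11 (limma adjusted p = 0.000335), with genotype differences of 0.58 (LSK) and 0.62 (MP). Flt3, a receptor of lymphoid and dendritic progenitors, was higher in LSK by 1.39 ± 0.11 (limma adjusted p = 0.000586). Lower in LSK were the erythropoietin receptor gene Epor, by -1.38 ± 0.11 (limma adjusted p = 0.000575), and the M-CSF receptor gene Csf1r, by -1.13 ± 0.09 (limma adjusted p = 0.000581). Between genotypes, Flt3 and Csf1r were each 1.21 higher without Smo in LSK, and 0.95 and 1.09 in MP, while Epor was at -0.76 and -0.72. The 2 other Csf1r probe sets had genotype differences from 0.49 to 0.81. The TGF-beta receptor gene Tgfbr2 was higher by 1.09 ± 0.12 (limma adjusted p = 0.0017), while its second probe set past the filter gave 0.15. Among these 21 tested genes, 8 were at least 0.5 higher without Smo in LSK and 1 lower, where 4.65% and 1.44% of all genes were. In MP 5 were higher and 1 lower, where 3.76% and 3.90% were.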
